A study of Mus musculus with 6 samples.

Results

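The interferon response and nucleic acid sensing genes described here are 48 of the 41079 genes listed in the deposited table, taken by gene symbol: 23 sensing and signalling genes and 25 genes that interferon induces. They were measured in D10 cells, a cloned, conalbumin-specific mouse helper T cell line from lymph node, labelled CD4+ and carrying no introduced gene or deletion that the labels name. Non-acclimated cells (37°C for 24 h, R1 to R3) and cold-acclimated cells (26°C for 24 h, R1 to R3) were kept in the same medium. Temperature was the only culture condition that the labels vary between them. Whether the groups also differed in the batch of their RNA cannot be read from the labels. Because every library is labelled as 1 cloned line, the results describe this line. Levels are in the TPM unit, a read count divided by gene length and scaled to the same sum in each library, and the read numbers behind them, recovered from the steps of the TPM, ran from 16899628 to 31290854 per library.

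Cells sense viral nucleic acid through receptors for double-stranded RNA such as Mda5 (encoded by Ifih1) and for cytosolic DNA such as cGAS, which signal through the adaptors Mavs and Sting and the kinases Tbk1 and Ikbke to interferon regulatory factors, chiefly Irf3 and Irf7. These factors switch on genes for interferons, which leave the cell, bind the receptor Ifnar1 and Ifnar2 on the same or other cells, and activate a complex that holds Stat2 and Irf9. That complex binds the interferon-stimulated response element and induces a large set of antiviral genes, including many of the sensing and signalling genes themselves.

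The core of this element, written here as GAAA, any 2 bases and GAAA again, was searched for on both strands of windows from 250 bases before to 50 bases after each gene's start, in RefSeq promoter sequences of GRCm38.p6 that were placed on GRCm39 by exact match. It was present in 1079 of the 27025 genes with a window (3.99%), in 4 of the 21 sensing and signalling genes with a window (19.0%: Irf2, Stat2, Ifih1 and Trim21) and in 7 of the 18 induced genes with one (38.9%: Ifit1, Ifit3, Oas1a, Oas3, Isg15, Rsad2 and Bst2). Overlapping matches count once per gene, and a match is a run of letters, not a shown binding site. The stretches below (GRCm39), all upstream of the start and read 5′ to 3′ on the strand of the gene, carry the match in capitals, or its reverse complement (TTTC, any 2 bases, TTTC). Irf2 and Oas3 are shown because they are the called genes with a match, and the others, chosen after their values were seen, because their levels set R3 apart from R1 and R2.
Irf2, chr8:47192530-47192578, plus strand: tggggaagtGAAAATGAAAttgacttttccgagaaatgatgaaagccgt
Oas3, chr5:120915760-120915829, minus strand: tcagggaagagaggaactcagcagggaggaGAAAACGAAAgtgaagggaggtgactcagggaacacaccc
Stat2, chr10:128106117-128106184, plus strand: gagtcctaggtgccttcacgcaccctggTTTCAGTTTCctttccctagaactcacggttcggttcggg
Ifit1, chr19:34618155-34618243, plus strand: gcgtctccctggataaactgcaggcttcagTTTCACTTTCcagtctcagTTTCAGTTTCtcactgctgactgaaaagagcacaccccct
Isg15, chr4:156285302-156285383, minus strand: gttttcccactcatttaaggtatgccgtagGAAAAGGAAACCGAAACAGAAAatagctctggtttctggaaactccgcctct
Rsad2, chr12:26506532-26506601, minus strand: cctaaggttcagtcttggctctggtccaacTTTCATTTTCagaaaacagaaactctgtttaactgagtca

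Isg15 carries 3 overlapping matches and Ifit1 carries 2, whereas Irf2, Oas3, Stat2 and Rsad2 carry 1 each. Among the genes tested, a match was found in 2 of the 8 called members with a window (25%) and in 9 of the 30 that were not called (30%).

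The libraries were first checked against their labels. Of the 10 T cell genes, Cd3g, a chain of the T cell receptor complex, was the most abundant, between 954 and 1847 TPM. Cd4 itself went against the label in R1 and R2, at 1.09, 0.0351 and 310 TPM in non-acclimated R1, R2 and R3 and at 1.3, 0.352 and 328 TPM at 26°C in the same order. Trac, the constant region of the T cell receptor alpha chain, was lower in R2, at 15.0 and 12.8 TPM against 129 to 207 TPM in the other 4 libraries. So were Cd3d, another chain of the complex, at 64.3 and 78.6 TPM against 240 to 332 TPM, and the costimulatory receptor Cd28, at 7.35 and 5.61 TPM against 27.9 to 54.5 TPM. By Cd4, R3 stands apart from R1 and R2 at both temperatures, and by Trac, Cd3d and Cd28 R2 stands apart from R1 and R3. Counts of called genes are also given without R3. Both libraries of R1 or of R2 were not left out together, so the counts without R3 have no counterpart. The labels speak of RNA extracted in old and new batches without assigning libraries to them. Batch can therefore not be told apart from replicate number or from temperature here.

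Summed by cell type, markers of other cells that make or answer interferon were low in all 6 libraries beside the T cell genes (3298 to 4961 TPM). The 7 B cell markers summed to between 0.0541 and 1.26 TPM per library, with Pax5 the most abundant and Ms4a1 at 0. For the 7 macrophage or monocyte markers the sums were 2.46, 3.39 and 15.9 TPM in non-acclimated and 3.37, 2.69 and 21.2 TPM in cold-acclimated R1 to R3, highest in R3, with Lyz2 the most abundant and Cd14 at 0. The 5 plasmacytoid dendritic cell markers other than Bst2 summed to 14.8, 15.7 and 12.4 TPM and to 5.31, 6.15 and 5.91 TPM in the same order, with Pacsin1 the most abundant (12.1, 14.2 and 11.1 TPM and 4.43, 6.05 and 5.61 TPM), while the defining markers Siglech and Klk1 were at 0 throughout. Pacsin1 was itself called lower in the cold (log2 fold change -1.08 ± 0.25, limma adjusted p = 0.025). It was also called with the replicate block, in voom and without R3, but not after median of ratios scaling or quantile normalization. The part of these marker levels in the results below was not tested.

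**Figure D1:**
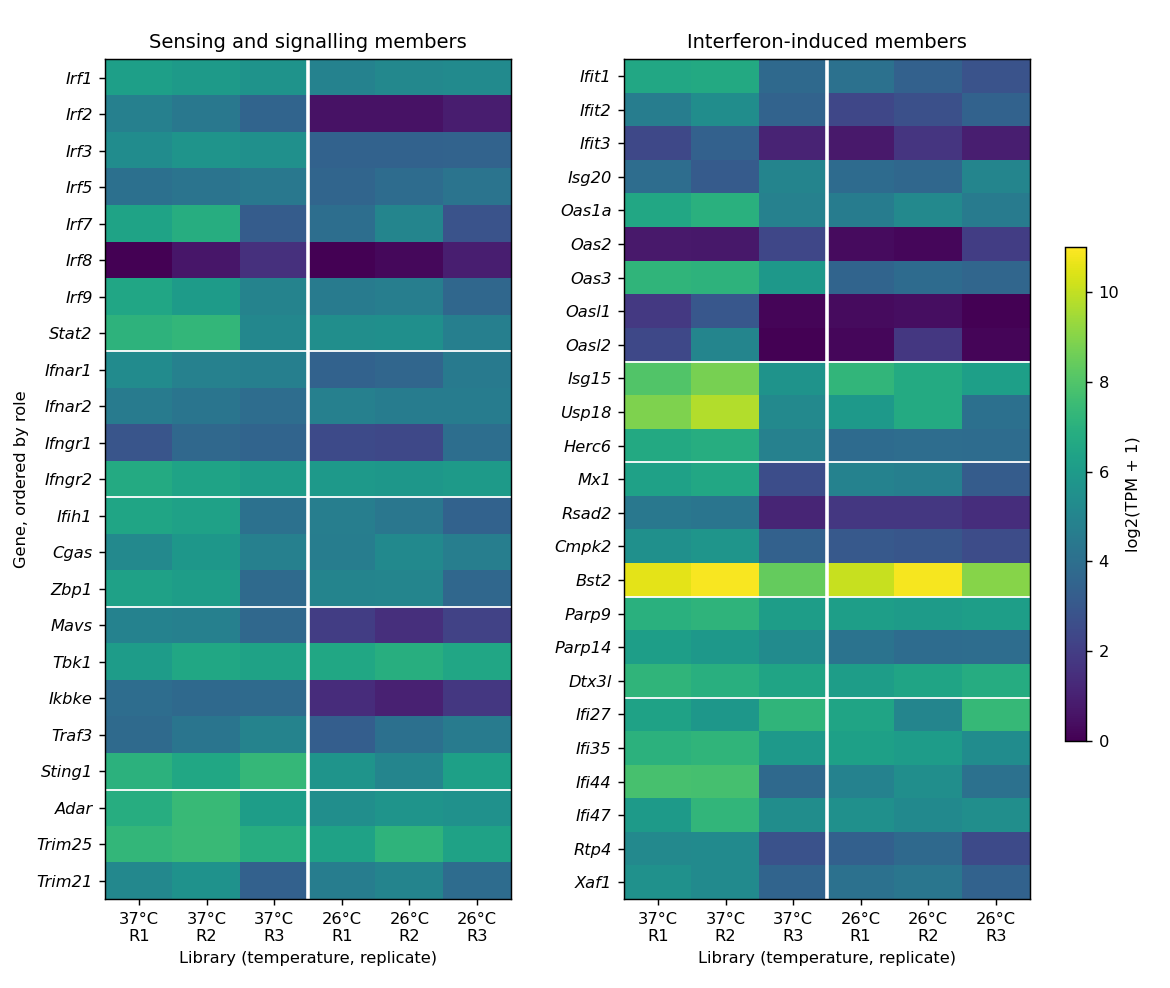
Expression of the 48 genes in each of the 6 libraries as log2(TPM + 1), with sensing and signalling genes on the left and interferon-induced genes on the right, ordered by role and separated by white lines. Irf2, Mavs and Ikbke are dark in all 3 cold-acclimated libraries, while Usp18, Ifi44 and Mx1 are bright in non-acclimated R1 and R2 and much darker in R3 at both temperatures.

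To determine how the pathway differed after cold acclimation, all 12227 genes with a mean of at least 1 TPM were fitted with limma on log2(TPM + 1), and a gene counted as called if its p, adjusted by Benjamini-Hochberg, was under 0.05 and its log2 fold change was 1 or more in either direction. Of the 23 sensing and signalling genes 22 could be tested, and 6 were downregulated (27.3%): Irf2, Irf3, Mavs, Ikbke, Sting1 and Adar. Of the 25 induced genes, all tested, 4 were downregulated (16.0%): Oas3, Herc6, Cmpk2 and Parp14. No member was upregulated, in limma or in voom on the recovered reads, and 0 of the 4 with a positive fold change had an unadjusted p under 0.05. Over all tested genes 16.0% were called lower and 2.63% higher (13.9% and 3.34% in voom), so the share of induced genes called lower was that of the background. Irf2, Oasl1 and Oasl2 averaged below 1 TPM at 26°C and met the minimum through the 37°C libraries, and Irf2 was also called without it.

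With the replicate number as a block, which compares libraries of the same number, 11 sensing genes and 10 induced genes were downregulated in limma, against 21.9% of all tested genes called lower and 3.75% called higher. Leaving out both libraries of R3 gave 13 of 22 sensing and 16 of 24 induced genes, against 25.5% of all genes lower and 5.41% higher, and leaving out non-acclimated R3 alone gave 11 and 17 against 15.0% and 3.27%. Both of these fits called Irf1, Zbp1, Isg15, Mx1, Rsad2, Ifi44 and Xaf1 lower, which neither the fit over all 6 libraries nor the block did, and Ifi35 was called in the second. The 16 and 17 induced genes also include Oasl1. It met the minimum through the 37°C libraries, so its direction was set by that minimum and its call is not read as a result. Leaving out non-acclimated R1 or R2, or cold-acclimated R1 or R2, gave 4 sensing genes, and induced genes numbered 2, 1, 2 and 2 in that order, against 4.29%, 2.73%, 3.82% and 4.90% of all genes called lower. Without cold-acclimated R3 the counts were 6 and 4, against 22.3%. Without a filter on low values they were 4 of 23 and 2 of 25, against 5.29%. Median of ratios scaling, which moved the median over all tested genes from -0.34 to 0.03 on the log2 scale, gave 4 sensing and 3 induced genes called lower, against 8.60% of all genes lower and 6.87% higher. Scaling and block together, a fit chosen after seeing the data, gave 6 of each, against 12.4% lower and 9.23% higher. Quantile normalization gave 4 and 2, against 6.26% lower and 5.98% higher.

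The median log2 fold change was -0.99 over the sensing genes and -1.21 over the induced genes, or -0.65 and -0.87 once the all-gene median was subtracted. Those relative values were of similar size after median of ratios scaling, at -0.62 and -0.93, and after quantile normalization, at -0.64 and -0.73. They moved more with the libraries used: for the induced genes the relative value was -0.35 without non-acclimated R2, -0.57 without non-acclimated R1, -1.69 without non-acclimated R3 and -1.42 without both libraries of R3, and for the sensing genes it ran from -0.47 to -0.86 with 1 library left out and was -0.97 without both libraries of R3. In these bulk libraries, fewer cells expressing a gene and less of its RNA per cell cannot be told apart.

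Transcripts for the interferons themselves, which are outside the 48 genes, were present in R1 and R2 and nearly absent from R3. Over 21 interferon genes, 318, 644 and 2 reads were recovered from non-acclimated R1, R2 and R3, and 34, 78 and 2 reads from cold-acclimated R1, R2 and R3. R3 had the fewest interferon reads at both temperatures although it was the most deeply sequenced library at each. Ifna4, an alpha interferon, gave the most of any gene, with 154, 287 and 1 reads at 37°C and 21, 37 and 2 reads at 26°C. Ifnb1, the beta interferon often made first after sensing, had 28, 117 and 0 reads at 37°C and 4, 18 and 0 at 26°C.

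Ifna2 followed the same order with 25, 70 and 0 reads against 4, 17 and 0. The lambda interferon genes Ifnl2 (62, 99 and 0 reads against 4, 1 and 0) and Ifnl3 (33, 19 and 0 reads against 0 in each) and the alpha interferon gene Ifna5 (9, 46 and 0 reads against 0 in each) were close to absent at 26°C. A count of 0 allows up to 3 reads, and this limit and these numbers cover counting error only. Ifng, the interferon of activated T cells, Ifnk and Ifna1 were at 0 in all 6 libraries. Because alpha interferon genes, and likewise Ifnl2 and Ifnl3, are near-identical copies, the split of reads among them is uncertain.

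Of the 6 interferon genes abundant enough to test, 0 were called over all 6 libraries in limma or voom without the block. Ifnl3 had an unadjusted p under 0.05 in limma, and the 3 libraries of each temperature overlapped for each of the 6. The replicate block called Ifnl2 lower (limma adjusted p = 0.041), and all 6 were called lower without both libraries of R3. Ifna5, Ifnl2, Ifnl3 and Ifnb1 averaged below 1 TPM at 26°C and met the minimum for testing through the 37°C libraries alone, so the direction of their difference was set by that minimum and no count of calls is read from them.

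**Figure D2:**
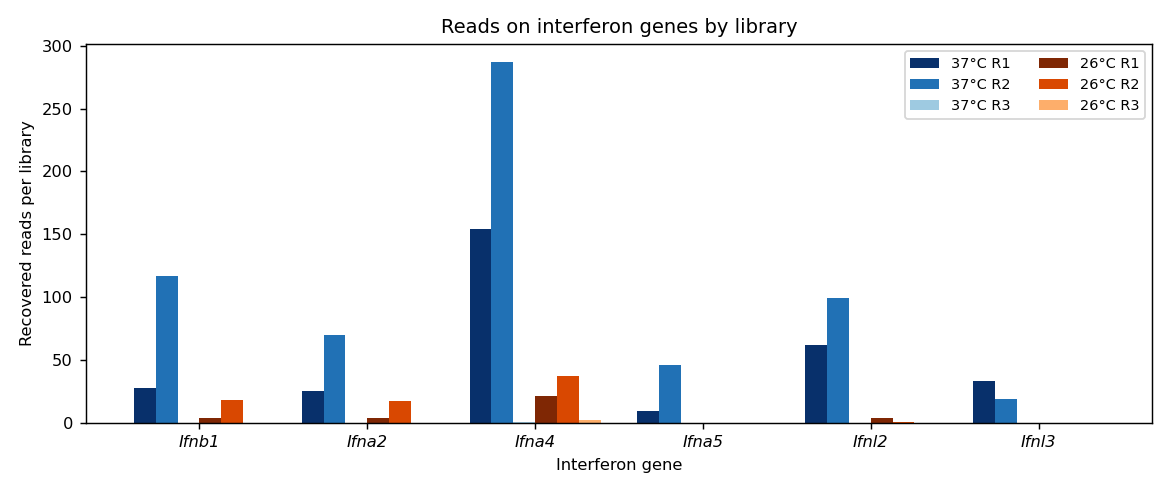
Recovered reads on each of 6 interferon genes (vertical axis, reads per library) in the 6 libraries, non-acclimated in blue and cold-acclimated in orange. Ifna4 reaches 287 reads in non-acclimated R2 and 154 in R1, cold-acclimated R1 and R2 stay at 37 reads or fewer, and R3 has at most 2 reads of any gene at either temperature.

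Of the 4 interferon receptor genes 0 were called over all 6 libraries by limma or voom without the block, and 1 had an unadjusted p under 0.05, Ifnar1. Ifngr2, a chain of the interferon gamma receptor and the most abundant of them, was at 106, 81.6 and 66.9 TPM in non-acclimated and 59.9, 56.2 and 63.0 TPM in cold-acclimated R1 to R3. Its groups did not overlap, but the difference was small, with a log2 fold change of -0.47 ± 0.24 (SE) and a limma adjusted p of 0.19. Ifnar1, a chain of the receptor for alpha and beta interferon, had a log2 fold change of -1.11 ± 0.33 with an adjusted p of 0.052 in limma, and was called with the replicate block (adjusted p = 0.038, with 0.0087 to 0.19 over all alternatives).

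Its partner Ifnar2 differed the other way, at 23.2, 18.3 and 14.1 TPM against 26.9, 23.4 and 23.4 TPM (log2 fold change 0.41 ± 0.26, limma adjusted p = 0.28). Ifngr1 was at 6.56, 12.1 and 10.8 TPM against 4.49, 4.26 and 14.6 TPM, so that its groups overlapped. The 3 receptor genes Ifnar2, Ifnar1 and Ifngr2 lie near one another on chromosome 16 of GRCm39, together with Il10rb, a receptor chain shared by lambda interferons and interleukin 10, which starts 0.689 kb beyond Ifnar2. Il10rb fell, from 23.4, 22.9 and 18.6 TPM to 8.42, 6.91 and 7.42 TPM (log2 fold change -1.40 ± 0.24, limma adjusted p = 0.011), although the call was lost after quantile normalization.

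Behind the receptors, Tyk2 was downregulated, and the Janus kinases Jak1 and Jak2 were not called. Tyk2, the kinase bound to Ifnar1, was at 57.9, 52.5 and 45.9 TPM in non-acclimated and 15.7, 17 and 25 TPM in cold-acclimated cells (log2 fold change -1.41 ± 0.26, limma adjusted p = 0.013). Its groups did not overlap, and the difference was smallest in R3. Jak1 was at 465, 381 and 270 TPM against 317, 180 and 271 TPM, and Jak2 at 19.2, 15.3 and 14.4 TPM against 14.7, 18.2 and 14.4 TPM.

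Stat2, a subunit of the interferon-activated complex, was the most abundant transcription factor of the list. It was at 137, 157 and 32.6 TPM in non-acclimated and 42.4, 43.5 and 25.8 TPM in cold-acclimated R1 to R3. Non-acclimated R3 lay below 2 of the cold-acclimated libraries, and the log2 fold change of -1.27 ± 0.58 was not called in limma (adjusted p = 0.15). Irf9, the DNA-binding subunit of that complex, was at 89.0, 65.5 and 29.6 TPM against 22.6, 25.2 and 11.6 TPM, with a log2 fold change of -1.52 ± 0.46 and a limma adjusted p of 0.053. With the replicate block both were called lower, with adjusted p of 0.025 for Stat2 (0.0039 to 0.39 over all alternatives) and 0.0070 for Irf9 (0.0064 to 0.16).

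Among the 3 nucleic acid sensors, Ifih1, Cgas and Zbp1, 0 were called over all 6 libraries by limma or voom without the block, and 0 had an unadjusted p under 0.05. Ifih1 was at 88.6, 77.2 and 16.1 TPM in non-acclimated and 25, 19.5 and 10.1 TPM in cold-acclimated R1 to R3, so non-acclimated R3 lay within the cold-acclimated range (log2 fold change -1.45 ± 0.65, limma adjusted p = 0.15). The replicate block called it lower (adjusted p = 0.014, with 0.0042 to 0.36 over all alternatives), and a non-coding gene on the opposite strand, Gm39839, lies over part of it at a mean of 23.5 TPM. Zbp1, a sensor of left-handed RNA and DNA, was at 77.4, 68.9 and 13 TPM against 30.1, 30.8 and 11.9 TPM (log2 fold change -0.86 ± 0.69, limma adjusted p = 0.41). It was called lower without both libraries of R3 (-1.24, limma adjusted p = 0.0093) and without non-acclimated R3 (-1.66, 0.046), with 0.0093 to 0.74 over all alternatives. For Cgas, which makes the messenger that activates Sting, the libraries overlapped, with a log2 fold change of -0.40 ± 0.32 that became 0.0043 after median of ratios scaling.

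The adaptors and kinases that follow the sensors held 3 of the 6 sensing calls, which is 3 of the 5 genes of this role (60.0%, against 16.0% of all tested genes). After median of ratios scaling, after quantile normalization and in voom 2 of the 5 were called, Mavs and Ikbke. Mavs, the mitochondrial adaptor through which RNA sensors signal, fell from 28.1, 26.3 and 12.3 TPM in non-acclimated R1 to R3 to 2.95, 1.76 and 3.5 TPM in the cold. The lowest library at 37°C was above every library at 26°C, the difference was 9.55-, 15.0- and 3.53-fold in R1, R2 and R3, and the log2 fold change was -2.59 ± 0.38 (limma adjusted p = 0.0084). Ikbke, an inducible kinase that phosphorylates Irf3 and Irf7, fell from 14.4, 12.7 and 12.8 TPM to 1.61, 1.01 and 2.49 TPM. Its non-acclimated libraries were close to one another, and it was 8.95-, 12.6- and 5.14-fold lower by replicate, with a log2 fold change of -2.44 ± 0.29 (limma adjusted p = 0.0070). In GRCm39 Mavs spans chr2:131075445-131089945 and Ikbke chr1:131182337-131207339.

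Sting1, the adaptor for cytosolic DNA, fell from 134, 91.6 and 161 TPM to 51.4, 30.7 and 75.1 TPM. R3 was here the highest library at both temperatures, the groups did not overlap, and the fall was 2.60-, 2.98- and 2.15-fold by replicate (log2 fold change -1.33 ± 0.37, limma adjusted p = 0.042). The Sting1 call was lost after median of ratios scaling (-0.92, adjusted p = 0.10) and when non-acclimated R1, R2 or R3 or cold-acclimated R1 or R2 was left out (adjusted p = 0.12, 0.077, 0.094, 0.12 and 0.12), as well as without a filter, after quantile normalization and in voom (0.087, 0.065 and 0.051), with 0.0070 to 0.12 over all alternatives. Tbk1, the constitutive relative of Ikbke, was higher in the cold in each replicate, at 67.1, 93.3 and 80.8 TPM against 93.7, 118 and 89.3 TPM, but its log2 fold change of 0.32 ± 0.23 was not called (limma adjusted p = 0.36). Traf3, a ubiquitin ligase that links Mavs to these kinases, had a log2 fold change of -0.37 ± 0.42 that was 0.02 after median of ratios scaling.

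Of the interferon regulatory factors, Irf2 and Irf3 were downregulated, and each was lower at 26°C in every replicate. Irf2, a repressor that competes for interferon response elements, was at 26.5, 20.0 and 10.6 TPM in non-acclimated R1 to R3 and at 0.451, 0.434 and 0.835 TPM in cold-acclimated R1 to R3. It was present in every non-acclimated library and close to absent from every cold-acclimated one, 58.6-, 46.2- and 12.7-fold lower by replicate, which was the largest difference among the 48 genes (log2 fold change -3.59 ± 0.37, limma adjusted p = 0.0067). The cold-acclimated values rested on 49, 49 and 107 reads. Irf2 spans chr8:47192751-47300493 on the plus strand of GRCm39.

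Irf3, the constitutive factor that sensing activates, fell from 40, 50 and 45.3 TPM to 10.1, 9.87 and 10.3 TPM. Both groups were tight, with means of 45.1 ± 5.0 and 10.1 ± 0.210 TPM (SD, n = 3), and the fall was 3.97-, 5.07- and 4.40-fold, with R3 between R1 and R2 (log2 fold change -2.05 ± 0.22, limma adjusted p = 0.0067). It spans chr7:44647072-44652272 on the plus strand. Irf2, Irf3, Mavs and Ikbke remained called under each of the 14 alternatives, with adjusted p at or below 0.046.

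Irf7, the factor that interferon induces and that amplifies alpha interferon production, showed a different distribution. Its level was 81.7, 115 and 8.25 TPM in non-acclimated and 14.5, 31.5 and 6.13 TPM in cold-acclimated R1 to R3, so that R3 at 37°C was below R1 and R2 at 26°C. The log2 fold change of -1.54 ± 0.97 was not called in limma (adjusted p = 0.29) but was with the replicate block (adjusted p = 0.024, with 0.011 to 0.61 over all alternatives). Irf1, which interferon gamma induces, had an adjusted p of 0.047 in limma but a log2 fold change of -0.86 ± 0.25, short of the size required. It was called lower without both libraries of R3 (-1.10, limma adjusted p = 0.017) and without non-acclimated R3 (-1.01, 0.040), and its log2 fold change was -0.45 after median of ratios scaling. Irf5, which acts downstream of Toll-like receptors, overlapped between temperatures (log2 fold change -0.34 ± 0.26, and 0.05 after median of ratios scaling), and shares 1049 bases with Tnpo3 on the opposite strand, at a mean of 97.6 TPM. Irf8 was too low to test, at 0, 0.567 and 1.89 TPM against 0, 0.162 and 0.884 TPM.

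Among the 3 regulators of sensing, Adar was downregulated. Adar (chr3:89622321-89660756) edits double-stranded RNA and so keeps self RNA from being sensed, and it fell from 113, 167 and 67.7 TPM to 41.9, 50.3 and 46.8 TPM (log2 fold change -1.21 ± 0.34, limma adjusted p = 0.042). The groups did not overlap and the smallest difference was in R3, at 1.45-fold against 2.69- and 3.31-fold in R1 and R2. This call was also lost after median of ratios scaling (-0.80, adjusted p = 0.12), without non-acclimated R1 or R2 (0.11 and 0.13) and without cold-acclimated R1, R2 or R3 (0.13, 0.10 and 0.055), and likewise without a filter, after quantile normalization and in voom (0.082, 0.093 and 0.054), and the adjusted p ran from 0.0093 to 0.13 over all alternatives. Trim25, a ubiquitin ligase that acts in RNA sensing and the most abundant of the 3, was at 154, 174 and 114 TPM against 79.1, 141 and 79.5 TPM, and its groups overlapped. Trim21, an intracellular antibody receptor, was at 34.2, 47.8 and 9.65 TPM against 24.5, 30 and 13.6 TPM, lower at 26°C in R1 and R2 and higher in R3.

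In the IFIT and OAS group, whose products bind viral RNA or activate its decay, Oas3 was the called gene. Oas3, an oligoadenylate synthetase activated by double-stranded RNA, fell from 146, 137 and 57.4 TPM to 10.5, 13.5 and 11.4 TPM, 13.9-, 10.2- and 5.04-fold by replicate (log2 fold change -3.05 ± 0.38, limma adjusted p = 0.0070), and remained called under each of the 14 alternatives. The 3 cold-acclimated libraries were close together although non-acclimated R3 was below R1 and R2. Oas2, 3.21 kb from Oas3 (chr5:120891163-120915755), was highest in R3 at both temperatures, at 0.680, 0.624 and 4.03 TPM against 0.242, 0.155 and 2.99 TPM, and was not called.

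Ifit1, which binds viral RNA lacking the methylated cap of the host, was at 96.3, 103 and 12.5 TPM in non-acclimated and 16.0, 9.73 and 6.02 TPM in cold-acclimated R1 to R3. Non-acclimated R3 lay inside the cold-acclimated range, and the log2 fold change of -2.24 ± 0.78 was not called in limma (adjusted p = 0.077) but was with the replicate block (adjusted p = 0.011, with 0.0030 to 0.22 over all alternatives). Ifit2, Ifit3 and Oas1a were likewise called with the block but not over all 6 libraries without it, at limma adjusted p of 0.040 (0.0045 to 0.17), 0.049 (0.042 to 0.50) and 0.028 (0.0063 to 0.30). Oasl1 and Oasl2, which stood at 0.11 and 0 TPM in non-acclimated R3, reached 6.88 and 31.1 TPM in non-acclimated R2, and 0.344 and 2.48 TPM in cold-acclimated R2. Isg20, an RNA exonuclease, had the opposite order, highest in R3 at both temperatures (29.9 and 30.8 TPM against 7.85 to 14.2 TPM elsewhere). Ifit3 and Oas1a have close copies near them in the mouse genome, so the split of their reads is uncertain.

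The ISG15 system, which attaches the ubiquitin-like protein Isg15 to other proteins, was spread widely between replicates. Usp18, the protease that removes Isg15 and restrains Ifnar2 signalling, was at 466, 857 and 35.5 TPM in non-acclimated and 58.5, 106 and 15.9 TPM in cold-acclimated R1 to R3. R1 and R2 were 7.96- and 8.08-fold lower in the cold and R3 2.24-fold lower, yet non-acclimated R3 was below cold-acclimated R1 and R2. Its log2 fold change of -2.36 ± 1.18 was not called in limma (adjusted p = 0.19) and was with the block (adjusted p = 0.0083, with 0.0049 to 0.45 over all alternatives), and a non-coding gene on the opposite strand, Gm44148, covers much of Usp18 at a mean of 102 TPM. Because the strand setting of the counting is not given in the sources used here, reads of such pairs cannot be assigned with certainty.

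Herc6 (chr6:57557977-57642121), the mouse ligase for Isg15, fell from 101, 113 and 27.5 TPM to 13.2, 14.2 and 14.0 TPM, 7.68-, 7.95- and 1.96-fold by replicate. The cold-acclimated libraries had a mean of 13.8 ± 0.553 TPM (SD, n = 3) and lay below each non-acclimated library (log2 fold change -2.23 ± 0.51, limma adjusted p = 0.024). The Herc6 call was lost without non-acclimated R1 or R2 or cold-acclimated R1 or R2, with adjusted p of 0.083, 0.086, 0.083 and 0.076, and without a filter or after quantile normalization (0.064 for each), and the range over all alternatives was 0.0030 to 0.086. Isg15 itself was at 259, 433 and 49.1 TPM against 151, 105 and 72.8 TPM, lower in the cold in R1 and R2 and higher in R3.

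In the group that restricts viral entry, synthesis or release, Cmpk2 was downregulated, from 44.5, 53.1 and 9.79 TPM to 7.53, 6.78 and 4.93 TPM (log2 fold change -2.03 ± 0.59, limma adjusted p = 0.048). Cmpk2 (chr12:26519121-26529836) is a nucleotide kinase, and non-acclimated R3 was the lowest of its group but still above the highest cold-acclimated library. The Cmpk2 call was lost after median of ratios scaling (adjusted p = 0.091), without non-acclimated R1 or R2 (0.15 for each) and without cold-acclimated R1, R2 or R3 (0.11, 0.12 and 0.080), and without a filter, after quantile normalization and in voom (0.11, 0.14 and 0.093), with 0.0030 to 0.15 over all alternatives. Rsad2, which makes a chain-terminating nucleotide and lies 12.7 kb from Cmpk2 on the opposite strand of chromosome 12, was at 20.0, 18.5 and 1.21 TPM against 2.44, 2.41 and 1.73 TPM. In Rsad2 the difference was thus 8.20- and 7.69-fold in R1 and R2, and R3 was low at both temperatures.

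Mx1, a dynamin-like inhibitor of viral replication, had the same form, at 77.0, 96.3 and 5.12 TPM against 28.2, 26.0 and 8.21 TPM. Bst2, which tethers budding virus to the cell and was the most abundant of the 48 genes, did not follow it: its level was 1512, 1874 and 338 TPM in non-acclimated and 1073, 1817 and 510 TPM in cold-acclimated R1 to R3. R3 was low at both temperatures, R1 and R2 were high at both, and the log2 fold change was 0.02 ± 0.71 (limma adjusted p = 0.99).

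Of the PARP and Dtx3l group, Parp14 was downregulated. Parp14 (chr16:35652262-35691904), an ADP-ribosyltransferase, fell from 71.0, 56.7 and 38.8 TPM to 17.1, 13.9 and 14.1 TPM, 4.14-, 4.07- and 2.74-fold by replicate and without overlap (log2 fold change -1.78 ± 0.28, limma adjusted p = 0.0093), and its call was lost without non-acclimated R2 (adjusted p = 0.051, with 0.0040 to 0.051 over all alternatives). Dtx3l, a ubiquitin ligase and the most abundant of the group, was at 147, 121 and 84.4 TPM against 68.4, 84.6 and 110 TPM, lower in the cold in R1 and R2 and higher in R3. Its partner Parp9, which starts from the opposite strand and shares 38 bases with it, was at 127, 143 and 68.9 TPM against 70.4, 64.2 and 71.5 TPM.

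Among the 6 other induced genes 0 were called over all 6 libraries in limma or voom without the block, and 0 had an unadjusted p under 0.05. Rtp4 was called lower in limma with the replicate block (adjusted p = 0.031, with 0.0064 to 0.55 over all alternatives). Ifi44, a classical interferon-induced gene, was at 225, 212 and 12.4 TPM against 28.6, 41.7 and 16.3 TPM, so that R1 and R2 were 7.89- and 5.08-fold lower in the cold while R3 was low in both. Ifi27, a mitochondrial protein gene and the most abundant of the 6, was highest in R3, at 79.6, 56.1 and 144 TPM against 85.1, 30.7 and 166 TPM, although it lies opposite the more abundant Ifi27l2a (mean 754 TPM). Ifi35, Ifi47, an interferon-inducible GTPase, and Xaf1, a pro-apoptotic protein gene, had log2 fold changes of -0.85 ± 0.40, -0.83 ± 0.44 and -0.83 ± 0.54, and Ifi47 lies opposite a non-coding gene at a mean of 21.2 TPM.

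**Figure D3:**
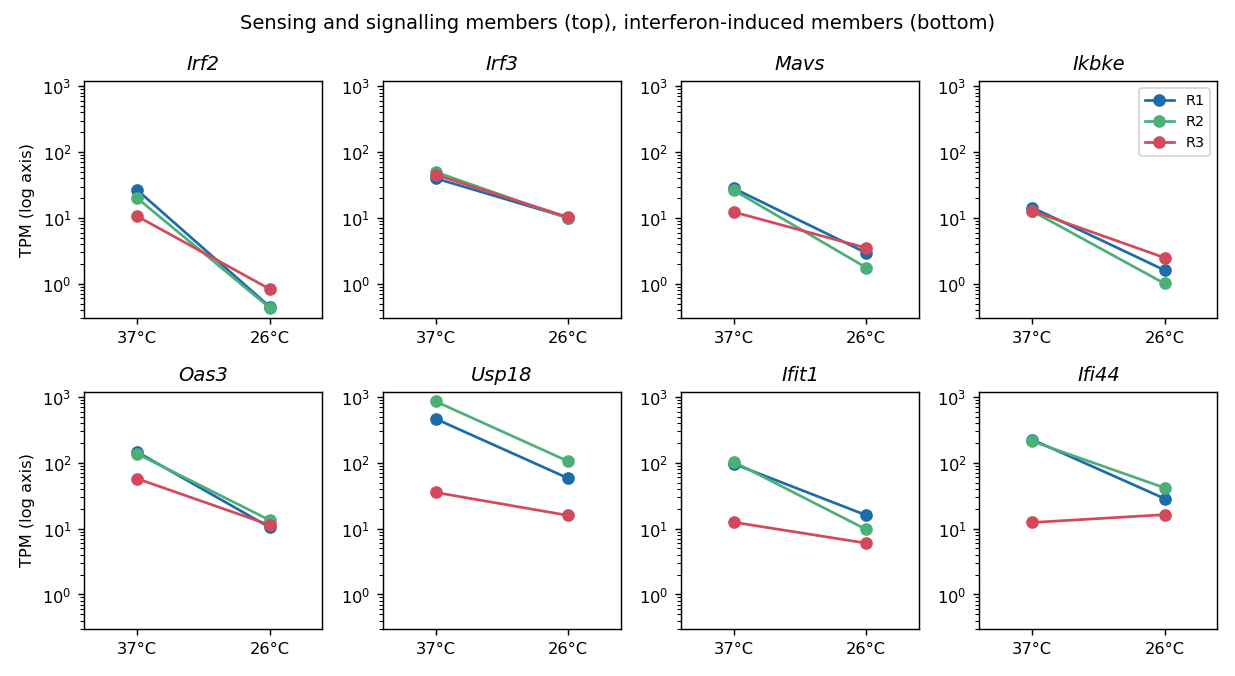
TPM (log axis) of 4 sensing and signalling genes (top) and 4 induced genes (bottom) at 37°C and 26°C, with 1 line per replicate. Irf2, Irf3, Mavs and Ikbke are lower at 26°C in all 3 replicates, whereas for Usp18, Ifit1 and Ifi44 the R3 line starts far below R1 and R2, and for Oas3 the 3 replicates lie between 10.5 and 13.5 TPM in the cold.

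The arms were then compared within each replicate number. Among the 25 induced genes, the median log2 fold change was -1.65 in R1, -1.95 in R2 and -0.06 in R3, against -0.32, -0.44 and -0.24 over all tested genes. Induced genes lower in the cold numbered 24, 24 and 14 of 25 (all tested genes: 64.1%, 67.6% and 64.2%), and those lower by at least 1 on the log2 scale numbered 17, 19 and 3, that is 68.0%, 76.0% and 12.0% against 26.5%, 30.8% and 15.3% of all tested genes. R3 was thus the replicate in which the induced genes did not stand below the other genes. Of the 25 genes, 14 were lower in all 3 pairs (all tested genes: 47.9%), 3 of them by at least 1 each time (9.44%), 0 were higher in all 3 and 11 were mixed. The counts of lower genes in R1 and R2 include Oasl1 and Oasl2. Both met the minimum through the 37°C libraries, so their direction was set by that minimum and is not read as a result.

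For the 22 sensing genes the medians were -1.36, -1.28 and -0.35, with 20, 20 and 18 genes lower and 13, 13 and 6 lower by at least 1. In R3 those 6 were 27.3% of the sensing genes, against 15.3% of all genes. The sensing genes lower in all 3 pairs numbered 18, and 6 were lower by at least 1 in all 3, while Ifnar2 and Tbk1 were higher in all 3 (all tested genes: 18.2%). All 3 cold-acclimated libraries lay below all 3 non-acclimated ones for 10 of 22 sensing genes (45.5%) and for 5 of 25 induced genes (20.0%), against 31.4% of all tested genes. They lay above them for 1 of the 47, Ifnar2, against 9.69% of all tested genes. Irf2, which met the minimum through the 37°C libraries, is in each count of lower sensing genes. The replicates are 1 library per temperature and number, so the difference between R3 and the others was not tested, and neither was the difference between the arms.

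**Figure D4:**
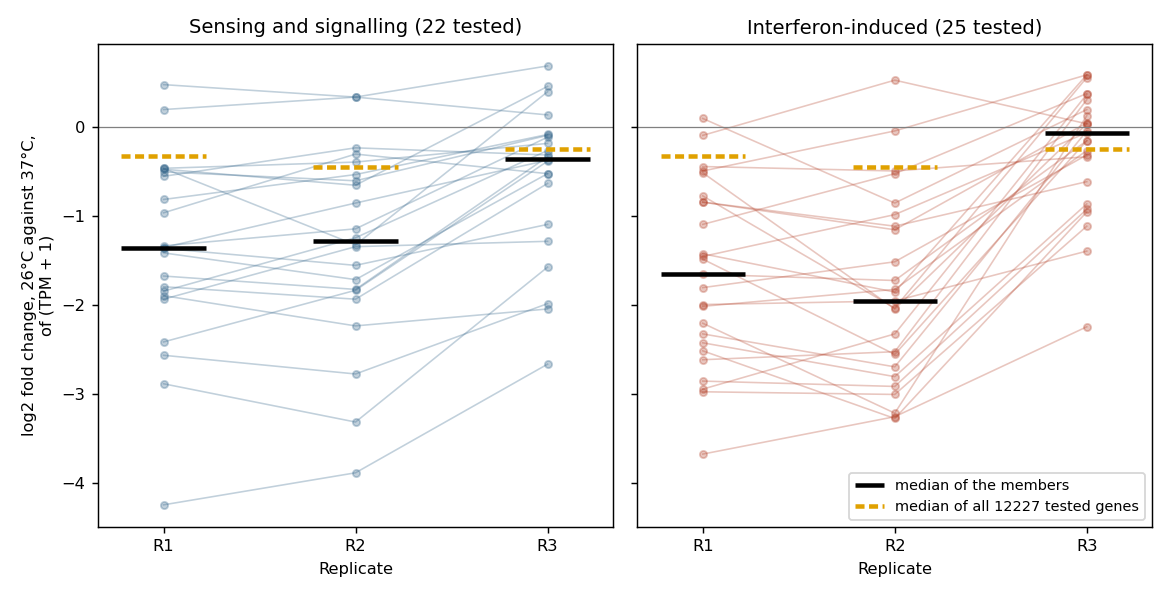
Log2 fold change of each gene within each replicate number (points joined by gene) for the 22 sensing and signalling genes and the 25 induced genes, with the median of the genes as a black bar and that of all 12227 tested genes as a dashed orange bar. The medians of the induced genes are -1.65 and -1.95 in R1 and R2 and -0.06 in R3, while Irf2, the lowest point in each replicate on the left, stays below -2.

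The levels behind these differences show where R3 departed. The median TPM of the induced genes was 77.0, 96.3 and 27.2 in non-acclimated R1, R2 and R3 and 16.2, 14.2 and 14.0 in the cold-acclimated libraries. Gene by gene, the median difference of R3 from the mean of R1 and R2 on the log2 scale was -1.92 at 37°C and -0.33 at 26°C, against 0.02 and 0.16 over all tested genes, so R3 was the lower at both temperatures and by more at 37°C. R3 was lower by at least 1 on the log2 scale than both R1 and R2 for 18 of the 25 induced genes at 37°C (72.0%, against 5.32% of all tested genes) and for 3 at 26°C (12.0%, against 4.19%). For the sensing genes this held for 7 of 22 at 37°C (31.8%) and 2 of 22 at 26°C (9.09%). The 18 induced genes include Oasl1 and Oasl2, which met the minimum for testing through non-acclimated R1 and R2. The interferon reads, the Cd4 level and the induced genes all set R3 apart, and their part in one another was not tested.

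The same comparison was made over 82 other genes of the pathway, of which 70 were tested. In limma 19 were downregulated (27.1%) and 1, Traf6, was upregulated, against 16.0% and 2.63% of all tested genes. With the replicate block 25 were lower (all tested genes: 21.9%) and without R3 39 were (25.5%). Interferon genes made up 1 of the 25, Ifnl2, and 6 of the 39. Ifnl2, Ifna5, Ifnl3 and Ifnb1, and Phf11d among the 39, averaged below 1 TPM at 26°C and were admitted by their 37°C level. Neither count is therefore read against its share. After median of ratios scaling 12 were lower and 3 higher (8.60% and 6.87%). Besides Tyk2 and Il10rb, the downregulated genes included the phosphatase Ptpn6, which restrains Janus kinase signalling, at 112, 106 and 127 TPM against 28.5, 13.7 and 54.7 TPM (log2 fold change -2.00 ± 0.45, limma adjusted p = 0.023).

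Of the sensors and adaptors outside the list, Rigi, a sensor of viral RNA that signals through Mavs, fell from 49.1, 43.6 and 40.8 TPM to 13.3, 11.4 and 29.4 TPM (log2 fold change -1.37 ± 0.36, limma adjusted p = 0.036), although not after median of ratios scaling or quantile normalization (adjusted p = 0.075 and 0.078). Trim56, a ubiquitin ligase of the DNA sensing pathway, fell from 27.2, 40.3 and 24.2 TPM to 5.47, 6.18 and 6.03 TPM (log2 fold change -2.16 ± 0.27, limma adjusted p = 0.0070). Traf6, which serves Toll-like receptors, rose from 48.3, 38.7 and 28.9 TPM to 135, 115 and 89.7 TPM, by a similar amount in each replicate (log2 fold change 1.54 ± 0.28, limma adjusted p = 0.012). Tlr3 and Tlr8 were listed at 0 in all 6 libraries.

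The downregulated genes also included the interferon-induced Ifi203, Samhd1, Trim14, Pml, Sp100, Mov10, Parp10, Parp11, Parp12, Mlkl, Epsti1 and Apobec3. Trim14 and Apobec3 overlap genes on the opposite strand, Gm16731 and Cbx7, at means of 57.6 and 13.3 TPM. The calls of Ifi203, Samhd1, Sp100, Parp10, Epsti1 and Apobec3 were lost after median of ratios scaling and after quantile normalization, and those of Ifi203, Parp10 and Epsti1 also in voom. Parp11 and Mov10, an RNA helicase, had the largest of these log2 fold changes, -2.61 ± 0.28 and -2.43 ± 0.29 (limma adjusted p = 0.0067 and 0.0070). Pml, the organizer of nuclear bodies, fell from 69.0, 109 and 24.3 TPM to 11.6, 11 and 11.5 TPM (log2 fold change -2.23 ± 0.50, limma adjusted p = 0.023), and its call was lost after quantile normalization (-1.82, adjusted p = 0.062).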

How the data were processed

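Poly(A)+ RNA libraries were strand-specific and sequenced as paired 150-base reads. Per the labels and the study's methods, the authors used FastQC 0.11.7, Trimmomatic 0.38, HISAT2 2.1.0 on GRCm39 and featureCounts 1.6.3, and tested counts with DESeq2; the values used here are the TPM deposited by the authors, in a table that also pairs genes with names and positions. Not given in the sources used here are the annotation release, the strand setting, the treatment of reads matching several genes and the step from counts to TPM.

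Read numbers were worked out from the smallest shared step in the TPM of a gene: all values of 100.0% of the 21195 genes above 0 came out whole within 1e-06 reads (largest deviation 8.7e-11), and 901 gene lengths were whole only after multiplication. limma 3.58.1 (R 4.3.3) with a mean-variance trend was fitted to log2(TPM + 1) over 12227 genes, 3 libraries against 3, with Benjamini-Hochberg adjustment over all of them. A fold change on this scale understates that of low genes. The fit was tested on simulated libraries without a replicate effect, with 200 of 12170 genes changed by 2 on the log2 scale. All 200 were recovered, with 8 false calls without the block and 14 with it. No simulated replicate stood apart, so this does not test the calls under the spread seen here. voom on the recovered reads called 1705 genes lower and 408 higher, against 1954 and 321 in limma, and served with pseudocount, filter, scaling, block and left-out libraries as an alternative. Positions and gene overlaps are those of the deposited table, and promoters were read with Python 3.11.15.

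Replicate numbers paired the libraries: deviations from the condition mean correlated at 0.48, 0.50 and 0.51 for the same number and between -0.41 and 0.02 otherwise, across genes. The study describes the replicates as independently prepared. Members and lists were chosen with earlier results of these data known. Values per library were given for called genes and for the most abundant gene of each role; for the others named, they were chosen after the values were seen. Some items of the pathway lists are counted but not reported here by name.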

Additional observations from a re-analysis of the deposited data

How the results depend on the processing

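With the replicate block the count of downregulated genes rose from 6 to 11 for sensing and from 4 to 10 for induced genes, and without R3 to 13 and 16, while the share of all genes called lower rose from 16.0% to 21.9% and 25.5%. The induced counts without R3 and without non-acclimated R3 include Oasl1, which was admitted by its 37°C level. Leaving out 1 library gave 4 to 11 sensing and 1 to 17 induced genes, while the share of all genes called lower ran from 2.73% to 22.3%. The median log2 fold change then ran from -0.83 to -1.19 for sensing and from -0.66 to -2.02 for induced genes. Without a filter and after quantile normalization the induced count was 2, against 5.29% and 6.26% of all genes. A fit with median of ratios scaling and the block, chosen after seeing the data, gave 6 for each, against 12.4% of all genes. Some genes that were not called changed sign. Median of ratios scaling, with or without the block, gave 0.05 for Irf5, 0.0043 for Cgas, 0.02 for Traf3, 0.18 for Trim21, 0.0014 for Dtx3l and 0.22 for Ifi27. Quantile normalization gave 0.21 for Irf5, 0.17 for Ifngr1, 0.16 for Traf3, 0.18 for Trim21 and -0.11 for Bst2. With 1 library left out, values ran from -0.87 to 0.22 for Trim21, -0.27 to 0.63 for Isg20, -0.75 to 0.50 for Bst2 and -0.74 to 0.45 for Ifi27, and without R3 -0.27 for Bst2. The cause of these changes was not tested. Depth limits the interferon genes and cold-acclimated Irf2, which rest on few reads.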

Other observations

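Genes of antigen presentation, which interferon also induces, had mixed values. B2m, the light chain of class I molecules, was at 19264, 10310 and 3156 TPM in non-acclimated and 13420, 14313 and 4926 TPM in cold-acclimated R1 to R3, lowest in R3 at both temperatures. The immunoproteasome subunit Psmb9 was at 599, 428 and 165 TPM against 177, 127 and 174 TPM, so that R3 differed little between temperatures, while Psmb10 was at 106, 139 and 122 TPM against 144, 145 and 126 TPM. The peptide transporter genes Tap1 (log2 fold change -0.84 ± 0.34) and Tap2 (0.14 ± 0.20) lie close together on chromosome 17, and neither was called in limma (adjusted p = 0.12 and 0.67). Socs1, a brake on interferon signalling, was the highest in non-acclimated R3, at 81.6, 47.6 and 277 TPM against 92.5, 65.8 and 68.1 TPM. These genes were chosen after their values were seen.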
